A study of Caenorhabditis elegans with 2 samples.

Results

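DnaJ proteins and Hsp co-chaperones are the genes described here, as sites where a tagged C06A6.2 protein was found by chromatin immunoprecipitation sequencing (ChIP-seq) in whole Caenorhabditis elegans. They were chosen by name: 29 protein-coding genes whose names start with dnj-, plus sti-1, cdc-37, bag-1, unc-45, daf-41, chn-1 and pph-5. That made 36 of 19973 nuclear protein-coding genes in the Ensembl annotation of WBcel235. There was a single group, of 2 biological replicates from strain OP810, whose transgene wgIs810 joins C06A6.2 to TY1, EGFP and 3xFLAG and carries unc-119(+), in unc-119 (tm4063) worms. The worms were young adults of 67 hours grown from starved L1 larvae, and an antibody to GFP pulled down the chromatin. No untagged strain or second group was analysed here, and chromatin of all tissues was pooled, so a peak cannot be assigned to a cell type.

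DnaJ proteins, also called J-proteins or Hsp40s, bind Hsp70 chaperones through their J domain and stimulate Hsp70 to split ATP, which lets Hsp70 grip an unfolded client. Different DnaJ proteins bring Hsp70 to different places, such as the cytosol, the endoplasmic reticulum (ER) or the mitochondrion. Other co-chaperones set the pace of the cycle: nucleotide exchange factors such as BAG-1 release the client from Hsp70, and proteins such as STI-1, CDC-37 and DAF-41 hand clients to Hsp90 or hold it in one of its states.

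Peaks of the authors' conservative list lay at DnaJ genes grouped here as cytosolic or ER, at bag-1 and at dnj-9. dnj-9 is 1 of 15 DnaJ genes placed in no role group, and roles were assigned with earlier results known. The summits counted for dnj-19 and dnj-29 were nearer to another coding gene. None of the 5 genes of Hsp90 co-chaperones had a conservative peak, which for so few genes does not stand apart from the share of all genes. A gene was counted when a peak summit, the deposited position of highest enrichment, lay within 500 bp of any start of its protein-coding transcripts. In the list deposited as conservative, of 1346 peaks that passed the authors' threshold on the irreproducible discovery rate (IDR), 8 of the 36 genes were counted: dnj-9, dnj-12, dnj-13, dnj-19, dnj-20, dnj-28, dnj-29 and bag-1. This was 22.2% (95% Wilson interval 11.7 to 38.1, counting error only), beside 3.27% of all protein-coding genes. In the other joint list, of 1338 peaks and called optimal here, 10 of the 36 were counted, beside 3.33% of all genes. The optimal list lacked dnj-20 and added dnj-11, dnj-14 and sti-1. Within 250 bp of a start, 5 of the 36 were counted (13.9%), beside 2.08% of all genes. No test was run on these shares, since the genes were chosen with earlier results on chaperones known.

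**Figure D1:**
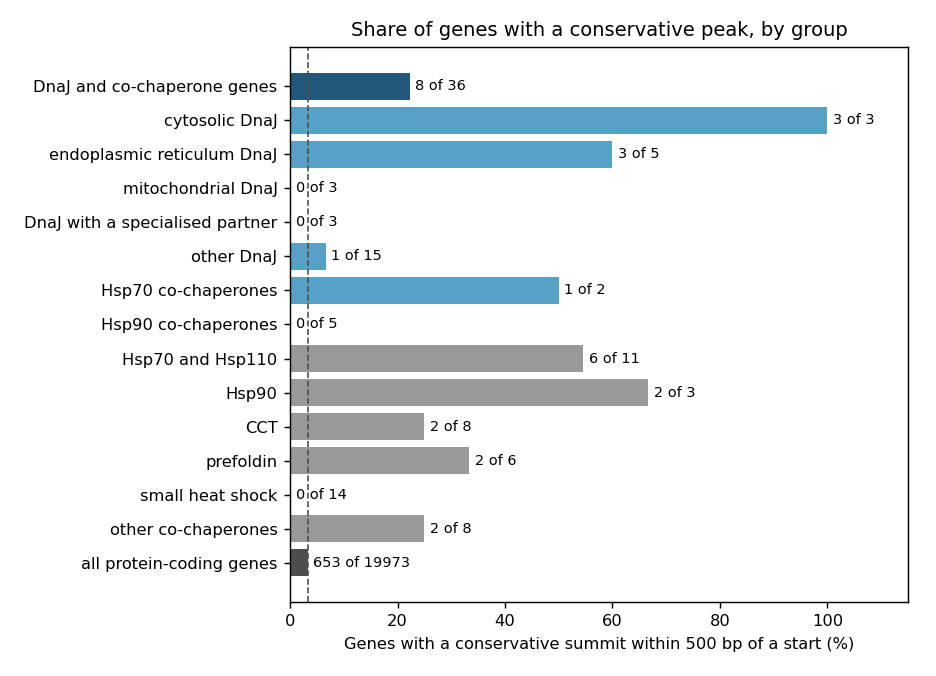
Share of genes with a conservative summit within 500 bp of a start, in percent, with the number of genes beside each bar. Dark blue is the whole set, light blue its groups by role, light grey other chaperone lists, and the dark bar and dashed line all protein-coding genes (3.27%). The cytosolic and ER DnaJ groups hold 3 of 3 and 3 of 5, and the Hsp90 co-chaperones 0 of 5. Roles were assigned with earlier results known. In groups this small, a count of none does not stand apart from the share of all genes.

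Signal, the authors' deposited value per peak, is the peak caller's measure of enrichment; its scale is not stated. In each replicate it was read from the ranked list, which also holds weak peaks. Whether the lists of the replicates share a scale was not tested, so an SD or ratio over the replicates includes any difference in scale between them. At the 8 genes with a conservative peak the median signal in that list was 147, with a range of 58.4 to 215, beside a median of 99.5 over the 653 genes with such a peak. By percentile, the share of the list with a lower signal, the 8 peaks had a median of 81.6 and a range of 11.8 to 90.8. Over the 653 genes the median percentile was 61.2. The strongest of them ranked 124 of the 1346 peaks.

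All 3 genes grouped here as cytosolic DnaJ genes with general Hsp70 functions had a conservative peak. The grouping was made with earlier results known and leaves 15 DnaJ genes in no role group. dnj-13 encodes a protein of the DNAJB kind, to which human DNAJB1 belongs. Its peak (chrII:11545332-11545651, ce11) had a conservative signal of 197, and the signal was 76.6 in replicate 1 and 118 in replicate 2 (mean 97.2 ± 29.1, SD, n = 2). dnj-19 and dnj-12 encode proteins of the DNAJA kind, which carry a zinc-binding region beside the J domain. The dnj-19 peak (chrV:5505108-5505427) had a conservative signal of 157, with 81.1 in replicate 1 and 75.3 in replicate 2 (78.2 ± 4.12, SD, n = 2). The dnj-12 peak (chrI:14756646-14756965) was weaker, with a conservative signal of 78.2 and with 47.6 in replicate 1 and 33.2 in replicate 2 (40.4 ± 10.2, SD, n = 2). In each replicate's list dnj-13 and dnj-19 were above dnj-12, while dnj-13 was below dnj-19 in replicate 1 and above it in replicate 2. In the replicates' own thresholded lists, dnj-13 and dnj-19 were present in both and dnj-12 in that of replicate 1 alone.

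Of the 5 genes grouped here as ER DnaJ genes, dnj-29, dnj-28 and dnj-20 had a conservative peak and dnj-7 and dnj-27 had none. dnj-29 encodes the SEC63 homologue, which works with the Sec61 channel and the ER Hsp70 in moving proteins across the ER membrane. It had the strongest peak of the set (chrI:14113407-14113547, conservative signal 215, rank 124), with 93.7 in replicate 1 and 114 in replicate 2 (104 ± 14.6, SD, n = 2). At dnj-28 (chrI:2996188-2996507) the conservative signal was 80.7, with 28.4 in replicate 1 and 56.6 in replicate 2 (42.5 ± 19.9, SD, n = 2). The ratio of replicate 2 to replicate 1, 1.99, was the highest among the 8 genes, and the peak was in the own thresholded list of replicate 2 alone. dnj-20 encodes the homologue of ERdj3 (DNAJB11), a soluble DnaJ protein of the ER lumen. Its peak (chrII:9619362-9619681) was the weakest of the 8, with a conservative signal of 58.4, and the replicates were close, at 31.7 and 32.9 (32.3 ± 0.872, SD, n = 2). It was in neither replicate's own thresholded list. dnj-27 encodes the homologue of ERdj5 (DNAJC10), a DnaJ protein with thioredoxin domains, and had no summit in reach in either replicate. dnj-7 had a summit in replicate 1 alone, with a signal of 14.1.

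Among the 15 DnaJ genes placed in no role group, dnj-9 alone had a conservative peak. Its peak (chrII:4851736-4851895) was the second strongest of the set, with a conservative signal of 204, and it had 88.8 in replicate 1 and 118 in replicate 2 (104 ± 21, SD, n = 2). At 160 bp it was narrower than most, since the caller gave 320 bp to the median peak. dnj-9, dnj-13 and dnj-29 had signals of 76.6 to 93.7 in replicate 1 and 114 to 118 in replicate 2, and their order differed between the lists of the replicates.

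Sequence around the summits is shown for the 3 peaks on chromosome II and for sti-1 on chromosome V, because they differ in which short words they hold. They are read from the WBcel235 genome on the strand of the gene, 5′ to 3′, and reach 100 bp to either side of the summit, or to the first exon of a coding gene. The summit is base 101 in each. Capitals mark TTCNNGAA and GAANNTTC, the 2 ways in which a pair of neighbouring heat shock units can lie, and GAGAGA and ACGCAG, searched on both strands. The windows are chrII:11545392-11545592 (plus strand) for dnj-13, chrII:4851728-4851928 (plus strand) for dnj-9, chrII:9619422-9619622 (minus strand) for dnj-20 and chrV:773327-773517 (plus strand) for sti-1.
dnj-13: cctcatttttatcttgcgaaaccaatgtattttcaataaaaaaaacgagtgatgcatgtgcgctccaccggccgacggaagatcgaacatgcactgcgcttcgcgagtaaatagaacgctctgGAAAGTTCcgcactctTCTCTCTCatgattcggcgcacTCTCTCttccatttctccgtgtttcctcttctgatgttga
dnj-9: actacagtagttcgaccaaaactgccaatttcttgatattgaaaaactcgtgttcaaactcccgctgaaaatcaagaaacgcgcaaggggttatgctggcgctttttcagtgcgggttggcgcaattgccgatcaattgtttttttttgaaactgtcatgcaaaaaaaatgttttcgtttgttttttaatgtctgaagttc
dnj-20: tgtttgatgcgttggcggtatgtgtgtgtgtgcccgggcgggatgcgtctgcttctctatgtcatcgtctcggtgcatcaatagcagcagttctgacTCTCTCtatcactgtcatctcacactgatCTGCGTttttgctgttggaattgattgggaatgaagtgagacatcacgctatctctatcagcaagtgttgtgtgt
sti-1: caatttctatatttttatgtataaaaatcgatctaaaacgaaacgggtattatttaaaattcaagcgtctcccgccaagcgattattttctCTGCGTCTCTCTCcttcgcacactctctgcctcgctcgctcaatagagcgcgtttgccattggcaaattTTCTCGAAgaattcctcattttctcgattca
The dnj-13 window held a heat shock word 26 bp downstream of the summit and a run of GA repeats, read here as CT, beyond it. The dnj-9 window, at a peak of about the same signal, held none of the marked words. In the dnj-20 and sti-1 windows a GAGAGA word lay within 2 bp of the summit, and ACGCAG lay 28 bp downstream of the summit in dnj-20 and 7 bp upstream of it in sti-1.

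The Hsp70 co-chaperone gene bag-1 had a conservative peak, and chn-1 had no summit in reach in any list. BAG-1 is a nucleotide exchange factor of Hsp70, and CHN-1 is the homologue of CHIP, a ubiquitin ligase that marks clients of Hsp70 and Hsp90 for degradation. The bag-1 peak (chrI:6564462-6564781) had a conservative signal of 137, with 52.9 in replicate 1 and 84.5 in replicate 2 (68.7 ± 22.4, SD, n = 2), and was in both replicates' own thresholded lists.

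None of the 5 genes for Hsp90 co-chaperones had a conservative peak, and sti-1 came nearest. Beside 3.27% of all genes, a count of none among 5 does not set this group apart. STI-1 is the homologue of HOP, which links Hsp70 to Hsp90. At sti-1 the signal was 20.04 in replicate 1 and 42.9 in replicate 2 (31.5 ± 16.2, SD, n = 2), at percentiles of 77.5 and 96.8 in the ranked lists. The peak (chrV:773267-773586) was in the optimal list with a signal of 62.3. In the ranked list of both replicates its IDR score, a whole number of at most 1000 that is higher for a more repeatable rank, was 377, while no conservative peak was below 830. daf-41, the gene of a p23-type co-chaperone, had a summit in replicate 1 alone, with a signal of 12.7. cdc-37, which brings kinases to Hsp90, pph-5, a protein phosphatase gene, and unc-45, which encodes a chaperone of myosin, had no summit in reach in any list. The nearest conservative summit lay 116353 bp from a start of cdc-37, 64557 bp from one of pph-5 and 11262 bp from one of unc-45.

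The 3 DnaJ genes grouped here as mitochondrial and the 3 grouped by a specialised partner had no conservative peak. Beside 3.27% of all genes, this does not set groups of 3 genes apart. The 15 DnaJ genes in no role group, dnj-9 among them, were not sorted by place in the cell. dnj-10, of the mitochondrial Hsp70 system, and dnj-15, of the kind that serves iron-sulphur cluster assembly, had no summit in reach in any list, and dnj-21, the gene of the import motor subunit TIM14, had one in replicate 2 alone (signal 18.8). dnj-14 encodes the cysteine string protein of synaptic vesicles. Its signal was 27.7 in replicate 1 and 32.7 in replicate 2 (30.2 ± 3.50, SD, n = 2), close to the values of dnj-20, and its peak (chrX:4711898-4712217, signal 66.1) was in the optimal list. That summit was 310 bp from a start of dnj-14 but 221 bp from one of the coding gene glit-1, and 96 and 99 bp from those of the non-coding RNA genes DL2.2 and DL2.1. The dnj-14 score in the ranked list of both replicates was 781, the highest below 830 among these genes. dnj-11, the homologue of DNAJC2, had a summit in replicate 2 alone, with a signal of 50.4, yet its peak (chrIV:6585436-6585755, signal 64.9) was in the optimal list. That summit was 275 bp from a start of dnj-11 but 196 bp from one of the coding gene F38A5.2. The dnj-11 score was 897 in the optimal list and 70 in the ranked list of both replicates. dnj-25, the homologue of auxilin, which uncoats clathrin vesicles, had weak summits in both replicates (16.2 and 19.95).

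**Figure D2:**
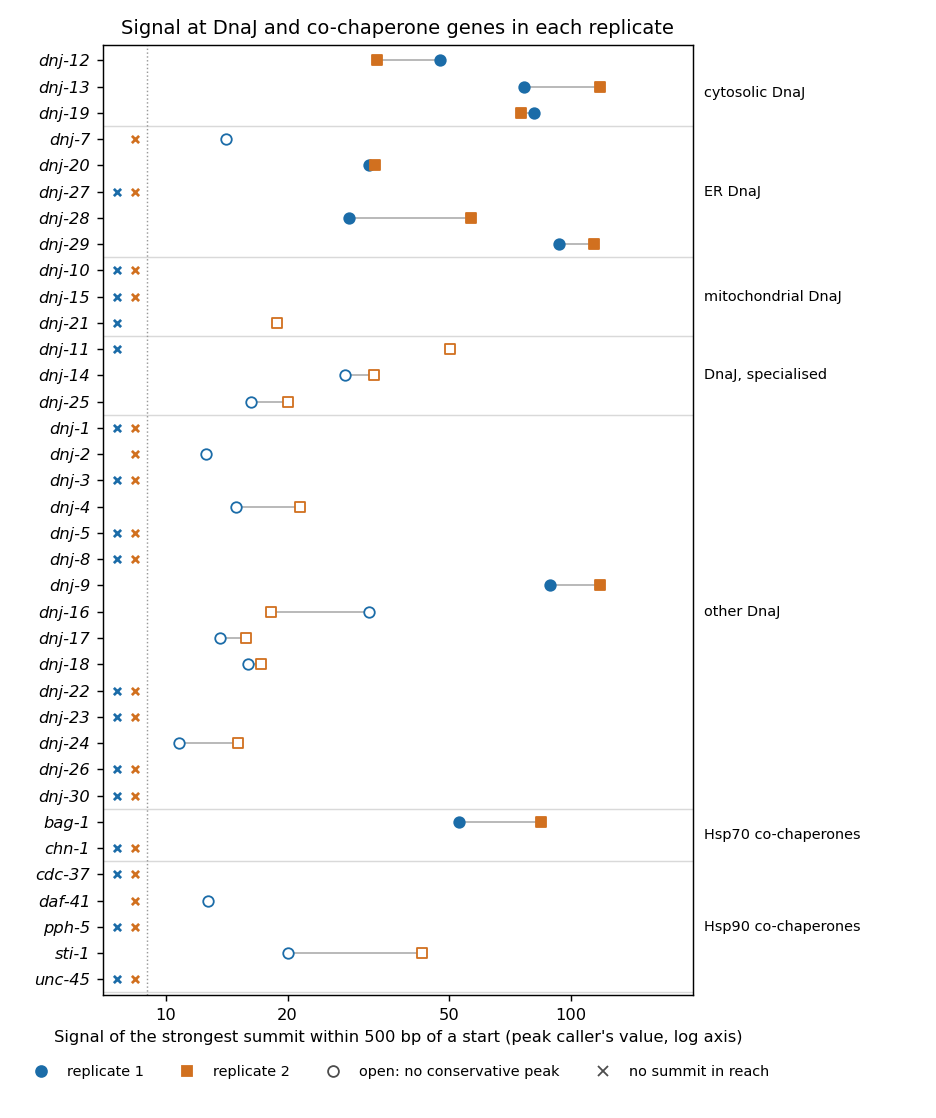
Signal of the strongest summit within 500 bp of a start in the ranked list of each replicate (log axis), for all 36 genes by role. Filled symbols are genes with a conservative peak, open symbols genes without one, and crosses mark that no summit was in reach. The filled symbols lie between 28.4 and 118, and the genes grouped as mitochondrial show 1 value, 18.8 at dnj-21 in replicate 2.

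In the ranked lists 19 of the 36 genes had a summit in reach in replicate 1, beside 35.3% of all genes, and 18 had one in replicate 2, beside 33.1%. Both replicates had one at 16 genes, or 44.4%, beside 19.5% of all genes. In the top 10% by signal of both ranked lists were 9 genes (25%), beside 3.81% of all genes: the 8 with a conservative peak and dnj-14. The genes of the set with a summit but no conservative or optimal peak had a median signal of 14.1 (n = 9) in replicate 1, beside 15.8 over all such genes, and 18.2 (n = 7) in replicate 2, beside 17.6. No summit in reach was listed for either replicate at 15 genes: dnj-1, dnj-3, dnj-5, dnj-8, dnj-10, dnj-15, dnj-22, dnj-23, dnj-26, dnj-27, dnj-30, cdc-37, chn-1, pph-5 and unc-45. At 5 others, dnj-2, dnj-7, dnj-11, dnj-21 and daf-41, it was listed for 1 replicate. Having no summit in reach was also the more common state over all genes in each ranked list. Among the genes with no conservative or optimal peak, dnj-16 was strongest in replicate 1, with 31.8, and had 18.2 in replicate 2 (SD 9.63, n = 2). Its replicate 1 value was just above the 31.7 of dnj-20, which had a conservative peak. In replicate 2 the strongest of them was dnj-4, at 21.5.

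The own thresholded list of replicate 1 held 6 of the 36 genes, beside 2.02% of all genes, and that of replicate 2 also held 6, beside 2.32%. Both lists held dnj-9, dnj-13, dnj-19, dnj-29 and bag-1, which is 5 of 36 (13.9%), beside 1.51% of all genes. These 5 were also the genes whose conservative peak was at or above the median signal of that list. Over the whole ranked lists the median signal was 15.3 in replicate 1 and 16.9 in replicate 2. The signal was higher in replicate 2 than in replicate 1 at 13 of the 16 genes with a summit in both ranked lists. Over these 16 genes the median ratio of replicate 2 to replicate 1 was 1.23 (range 0.572 to 2.14), beside 1.12 over 3887 genes. A higher signal in replicate 2 was thus also the more common order over all genes. The genes with the opposite order were dnj-12 (0.697), dnj-19 (0.928) and dnj-16 (0.572).

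**Figure D3:**
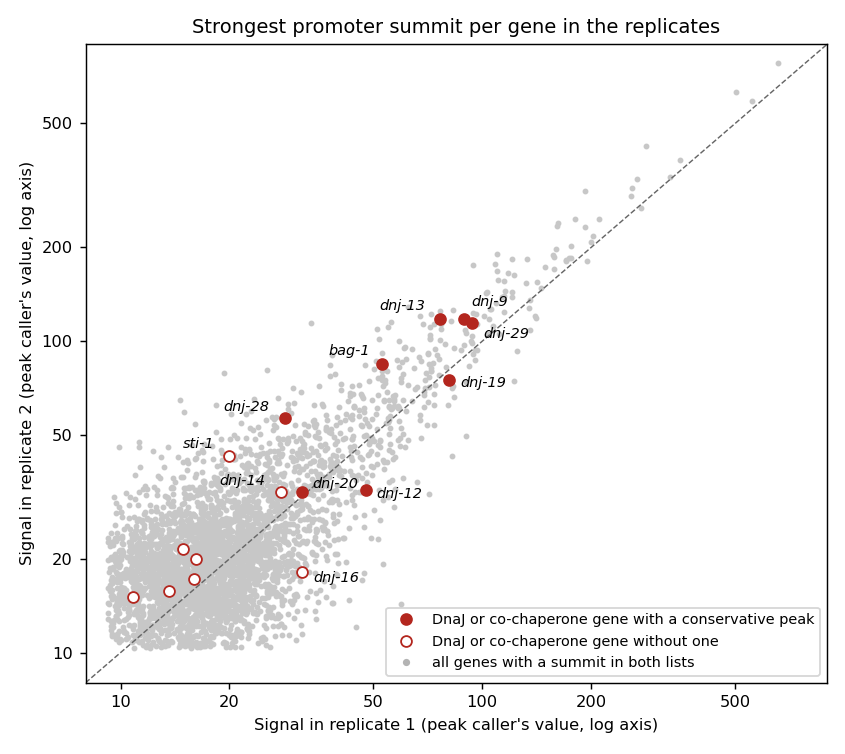
Signal of the strongest promoter summit of each gene in replicate 1 (x axis) and replicate 2 (y axis), both on log axes. Red points are the 16 genes of the set with a summit in both ranked lists, filled where there is a conservative peak, grey points are all genes with both, and the dashed line marks equal signals. dnj-9, dnj-13 and dnj-29 lie highest of the set, at 114 to 118 in replicate 2, and sti-1 and dnj-28 lie well above the line with ratios of 2.14 and 1.99.

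All 8 conservative summits lay upstream of the nearest annotated start of the gene, by 98 to 411 bp (median 218.5), beside 87.6% of the 653 genes with a conservative peak. The annotated start is the 5′ end of a transcript model, and where transcription begins was not measured. The replicates placed these summits within 3 to 36 bp of each other. The conservative list was thresholded on how well the replicates repeat, so small gaps at its peaks follow in part from that choice. At the 8 other genes with a summit in both ranked lists the gap was 13 to 4429 bp. It was 682 bp at dnj-18, 435 bp at dnj-17 and 4429 bp at dnj-24, so the strongest summits of the replicates there are not the same site. At dnj-24 they lay near different starts of the gene, which has 2.

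**Figure D4:**
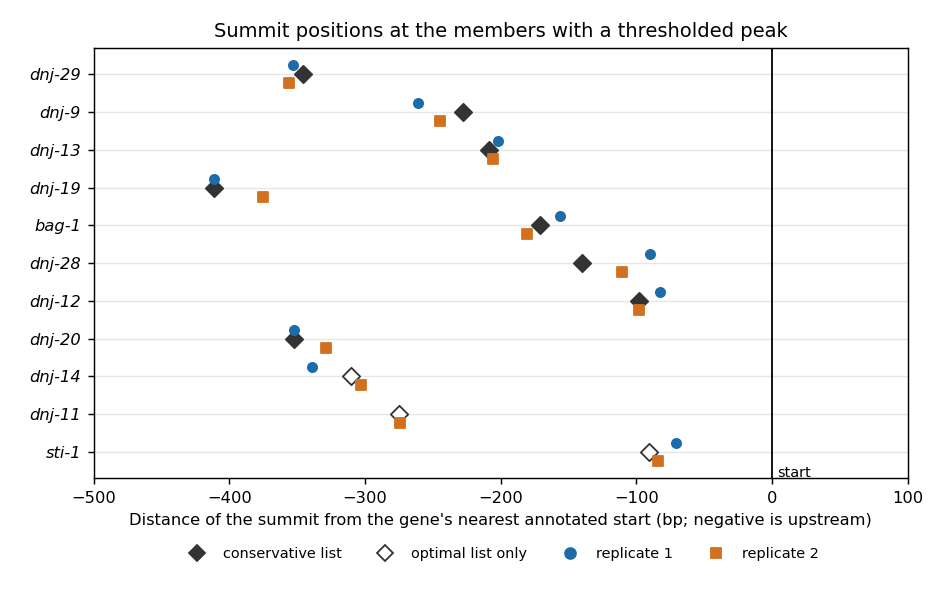
Distance of the summit from the gene's nearest annotated start, in bp, negative upstream, for the 11 genes with a peak in the conservative or optimal list. Diamonds are the joint lists (filled conservative, open optimal only), circles replicate 1 and squares replicate 2. Every symbol lies upstream of the start, and dnj-19 and dnj-12 mark the far and near ends of the conservative summits at 411 and 98 bp.

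At 4 of the 8 genes the peak was also within 500 bp of a start of another protein-coding gene and could belong to either. Of all 577 conservative peaks at promoters, each counted once, 22.7% reached more than 1 coding gene. Counted by gene the share is higher, since a shared peak then counts for each gene it reaches. The 22.7% is therefore not a like measure for the 4 of 8 genes. The dnj-29 summit was 346 bp upstream of dnj-29 and 182 bp upstream of ndua-2, which encodes a subunit of respiratory complex I. The dnj-19 summit was 411 bp from the start of dnj-19 but lay in an annotated UTR of nhr-47, a nuclear receptor gene, 15 bp from its start, and 7 bp from that of the non-coding RNA gene C24G6.10. With the peaks nearer to another coding gene left out, 6 of the 36 genes kept a peak. At dnj-12 the summit was nearer to dnj-12 (98 bp) than to mtx-1 (394 bp), and at dnj-28 it was nearer to dnj-28 (140 bp) than to supr-1 (434 bp). The dnj-20 summit lay in an intron of the longer dnj-20 transcript, 352 bp upstream of the start of the shorter one, and dnj-20 was not counted when the most upstream start alone was used. The dnj-13 summit lay in an exon of a non-coding RNA gene, F54D5.22. The summits of dnj-9, dnj-20 and bag-1 had no other gene's start within 500 bp.

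By chromosome, the peaks were at 4 of 9 members on chromosome I, 3 of 7 on II and 1 of 6 on V. None of the 7 members on III, the 5 on IV and the 2 on X had one. Among all protein-coding genes the share with a conservative peak was 4.48% on I, 3.04% on II, 4.70% on III, 2.77% on IV, 2.64% on V and 2.64% on X.

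Heat shock words were found in the windows of dnj-12, dnj-13, dnj-19 and bag-1. Heat shock units are the DNA letters bound by heat shock factor, the regulator of many chaperone genes. A window of 201 bp centred on the summit held TTCNNGAA or GAANNTTC, either strand, at 4 of the 8 genes, beside 16.3% of the 577 conservative summits at promoters and 22.4% of windows of the same length centred 150 bp upstream of all starts. In the dnj-12 and bag-1 windows the words overlapped as 3 units in a row, 59 bp downstream of the summit in dnj-12 and 62 bp downstream in bag-1. This longer form, searched after the values were seen, was in 2.60% of promoter summits and 1.30% of promoters. Within 50 bp of the summit 1 of the 8 windows held a word, that of dnj-13, beside 6.93% of promoter summits. The sti-1 window, at a peak of the optimal list, held TTCNNGAA as well, 63 bp downstream of the summit.

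The other words were in 1 to 4 of the 8 windows, counts too small to order against those of other promoter summits. GAGAGA was in 3 of the 8, those of dnj-13, dnj-19 and dnj-20, beside 35.4% of promoter summits and 16.3% of promoters. ACGCAG was in 1, that of dnj-20, beside 23.6% and 6.40%. ACGTG, the core of an element bound in the unfolded protein response of the ER, was in 2, those of dnj-19 and dnj-28, beside 23.6% and 19.6%. AAAAAT was in 4, beside 55.3% and 73.8%. The median GC content of the 8 windows was 42.5%, beside 45.3% at promoter summits and 33.8% at promoters. A match of this kind is a description of letters and does not show binding by any factor.

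Genes of Hsp70 and Hsp90 chaperones, and of some other chaperones and co-chaperones, also had peaks. Of 51 genes in lists of other chaperones, chosen with earlier results known, 14 had a conservative peak (27.5%), beside 3.27% of all genes, and these 14 genes rested on 13 distinct peaks. In the Hsp70 and Hsp110 list 6 of 11 had one, on 5 distinct peaks since F44E5.4 and F44E5.5 share one (424). The others were at the cytosolic Hsp70 gene hsp-1 (221), hsp-3 (185), hsp-110 (157) and hsp-6 (109). In the Hsp90 list hsp-90 (287) and enpl-1 (139) had one. The CCT chaperonin had 2 of 8, prefoldin 2 of 6, and the small heat shock proteins 0 of 14. Among 8 other co-chaperone genes, unc-23 (107), which encodes a BAG-domain protein, and C34C12.8 (158), the gene of a GrpE-type exchange factor, had one. hsf-1, the heat shock factor gene, had no conservative peak and signals of 21.6 and 20.3 in replicates 1 and 2.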

How the data were processed

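The files were peak lists of 2 biological replicates in ce11 coordinates. The authors deposited for each peak a signal, an IDR score and a summit offset, in lists derived from the alignments of each replicate or of both, per the deposited text files. The thresholded lists of both replicates are called conservative, as deposited, and optimal here. No source used here gives the aligner, the peak caller or their versions. Read numbers were not in these files, so depth is unknown and the intervals cover counting error only. Signal was used to order peaks within a list, and was set side by side for the replicates as deposited, with no rescaling.

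Starts came from Ensembl release 115 on WBcel235, the assembly ce11 names, as 29314 starts of protein-coding transcripts summed over genes. Sequence came from the RefSeq copy of WBcel235, and 0 of 100623 peaks ended beyond its chromosomes. For each gene the strongest summit within 500 bp of a start was taken (Python 3.11.15, SciPy 1.17.1). The assignment was tested on made-up summits. Genes, roles, words and lists were chosen with earlier results of these data known, so shares stand beside those of all genes with no test. Every gene with a conservative peak is named, as are those in the top 10% of both ranked lists and those lacking a ranked summit in either replicate; other genes are examples of a role. The replicates come from separately labelled biosamples. Alternatives were the optimal list, each replicate's own list, windows of 250 and 1000 bp, other start and neighbour rules and a narrower window for words.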

Additional observations from a re-analysis of the deposited data

How the results depend on the processing

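Of the alternatives, 27 values moved by at most 1.5 times (counts) or by at most the spread used for medians, and 12 moved further. For the median percentile the spread was the SD of the medians in the replicates' own lists (1.36). For the median ratio it was the SD over the 16 genes (0.413), a spread between genes and not between replicates. These counts are therefore a rough guide only. With a window of 250 bp the number of genes with a conservative peak was 5, all 5 upstream of the start, 9 had a summit in both ranked lists, 2 were in both replicates' own lists (dnj-13 and bag-1) and the other chaperone lists had 9 of 51. dnj-19, dnj-20 and dnj-29 were lost there because their summits lie over 250 bp from a start. With peaks at or above the median signal alone, 5 genes were counted. With a replicate left out the count was 6 in either case, without dnj-12 and dnj-20 when replicate 1 was left out and without dnj-20 and dnj-28 when replicate 2 was left out. The median percentile of 81.6 was 60.5 in the optimal list, which adds 3 peaks of low signal, 79.3 at 250 bp, and 75.6 to 77.5 with a replicate left out. Heat shock words were at 1 gene within 50 bp of the summit, and 2 genes had 3 units in a row, an alternative chosen after seeing the data. No paired analysis was possible because there was a single group. Depth is unknown, so a gene without a peak is one with none in these lists, not one shown to lack binding.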

Other observations

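The conservative list held a further peak at dnj-12, 53 bp upstream of the later of its 2 annotated starts, with a signal of 4.56 and an IDR score of 1000, the highest possible. It overlapped the dnj-12 peak of signal 78.2 (chrI:14756850-14757169 against chrI:14756646-14756965). In the whole conservative list 65 of the 1346 peaks (4.83%) had a signal under 10, and 64 of these overlapped a stronger peak of the same list. The strongest-summit rule leaves them out of the values given for these genes.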
